A study of Mus musculus with 8 samples.

Results

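Type I interferon-stimulated genes were followed in the lungs of CC-LR mice with and without the STAT3 inhibitor TTI-101. The group held 33 genes chosen by name, and all 33 were found once each among the 54532 genes of the count table. The study asked how inhibition of STAT3 altered the lung transcriptome and immune environment of a mouse model of K-ras mutant lung adenocarcinoma. Bulk RNA-seq was performed on poly(A) RNA of whole lungs from 4 Control mice and 4 TTI-101-treated mice, with 1 library per mouse. All 8 mice were CC-LR: on a C57BL/6 background they carried a lox-stop-lox K-rasG12D allele and a Cre recombinase expressed from the club cell secretory protein (CCSP) locus, so mutant K-ras was switched on in airway epithelium in both groups. TTI-101, a small-molecule inhibitor of canonical STAT3 signaling, was given for 4 weeks, and all mice were killed at 14 weeks of age. The study used both sexes and gave TTI-101 by different routes in different experiments. The sex of these 8 mice, the route used for them and the treatment of the Control mice were not given in the sources used here.

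Type I interferons are secreted when sensors detect foreign or misplaced nucleic acid. They bind a receptor built from IFNAR1 and IFNAR2, the kinases JAK1 and TYK2 then phosphorylate STAT proteins, and these join IRF9 in a complex that binds the interferon-stimulated response element in target promoters. The genes induced in this way encode RNA sensors, proteins that block viral translation or degrade RNA, and feedback regulators of the pathway itself, and many of them also respond to type III interferon or to interferon gamma. In the lung, epithelium, endothelium and leukocytes all carry the receptor and express these genes.

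Promoters of the members are shown because the response element is the feature through which the pathway acts, and because members with and without it could then be set side by side. A window of 300 bases per gene (250 before and 50 after the start of transcription) was available from RefSeq on GRCm38.p6 for 24 of the 33 members. No window was available for Usp18, Mx1, Mx2, Oas2, Parp9, Parp14, Dhx58, Zbp1 and Rtp4. The response element was searched as GAAA, any 2 bases and GAAA on both strands (TTTC, any 2 bases and TTTC on the other), with overlapping matches counted once. The motif was present in 12 of the 24 windows (50%), against 690 of the 20484 genes with a window (3.37%). Ifit1, Ifit3, Ifit3b and Isg15 each held 2 matches, which 0.142% of all genes did. The 5 printed promoters follow, 5′ to 3′ on the strand of the gene, with the counted matches in capitals.
Isg15, chr4:156200769-156201068, minus strand: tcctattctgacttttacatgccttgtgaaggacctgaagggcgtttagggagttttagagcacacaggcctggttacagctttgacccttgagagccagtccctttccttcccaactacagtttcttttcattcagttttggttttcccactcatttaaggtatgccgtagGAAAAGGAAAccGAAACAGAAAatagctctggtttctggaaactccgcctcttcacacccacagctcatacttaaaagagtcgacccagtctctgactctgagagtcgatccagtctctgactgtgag
Ifit3, chr19:34583279-34583578, plus strand: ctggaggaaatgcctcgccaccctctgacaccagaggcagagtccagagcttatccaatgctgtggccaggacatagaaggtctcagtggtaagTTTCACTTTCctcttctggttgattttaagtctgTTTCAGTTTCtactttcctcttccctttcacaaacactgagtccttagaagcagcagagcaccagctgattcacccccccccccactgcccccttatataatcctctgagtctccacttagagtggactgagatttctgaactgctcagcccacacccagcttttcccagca
Oas3, chr5:120777610-120777909, minus strand: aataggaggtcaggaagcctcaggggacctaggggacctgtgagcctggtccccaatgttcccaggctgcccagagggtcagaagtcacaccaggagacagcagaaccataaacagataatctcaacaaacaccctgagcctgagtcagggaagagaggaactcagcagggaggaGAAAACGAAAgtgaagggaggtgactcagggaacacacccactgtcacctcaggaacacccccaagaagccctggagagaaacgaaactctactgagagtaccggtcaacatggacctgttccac
Eif2ak2, chr17:78882523-78882822, minus strand: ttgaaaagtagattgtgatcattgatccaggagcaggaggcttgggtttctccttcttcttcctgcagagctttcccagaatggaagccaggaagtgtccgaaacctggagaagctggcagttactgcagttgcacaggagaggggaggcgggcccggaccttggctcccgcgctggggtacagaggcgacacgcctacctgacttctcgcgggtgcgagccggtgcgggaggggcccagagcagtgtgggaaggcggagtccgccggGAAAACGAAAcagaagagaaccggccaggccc
Ddx58, chr4:40239776-40240075, minus strand: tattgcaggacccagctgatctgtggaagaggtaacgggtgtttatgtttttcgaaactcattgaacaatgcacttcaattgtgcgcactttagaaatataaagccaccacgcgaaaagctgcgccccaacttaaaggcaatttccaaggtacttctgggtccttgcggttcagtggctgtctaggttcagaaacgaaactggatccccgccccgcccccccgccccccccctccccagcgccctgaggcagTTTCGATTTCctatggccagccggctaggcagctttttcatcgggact
Counted to the first base of each match, the promoter of Isg15 held its matches 78 and 66 bases before the start, and that of Ifit3 held them 156 and 122 bases before it. In Isg15 a further match, GAAAccGAAA, overlapped both counted matches and was neither counted nor marked. Ifit1 carried the same pair of letter strings, TTTCACTTTC and TTTCAGTTTC, at 104 and 85 bases before the start, and Ifit3b carried them at 188 and 154 bases. The match of Oas3 lay 75 bases before the start, while those of Eif2ak2 and Ddx58 lay 18 and 2 bases after it. Single matches were also found in Bst2, Rsad2, Oas1a, Trim30a and Ifih1. The windows of Ifit2, Herc6, Cmpk2, Oasl1, Oasl2, Dtx3l, Parp12, Ifi35, Ifi44, Xaf1, Irf7 and Irf9 held none, which says only that these letters were not in this window.

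Counts per library summed to between 16075855 and 26873509, and 17138 genes had enough counts to be tested. Expression is given as CPM, counts relative to the TMM-adjusted size of the library. Lung markers were abundant, with the surfactant gene Sftpc between 16700 and 40600 CPM in every mouse. One library stood apart: on the first principal component, which held 45.17% of the variance, Control mouse 4 lay at 101.1 and the other 7 mice between -39.35 and 17.92. Mitochondrial genes took 5.564% of the counts of Control mouse 4 and 2.009% to 2.854% in the other mice. Member values that moved with this mouse are therefore also given without it.

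All 33 members were expressed well enough to be tested. Levels of different genes were compared as CPM per kb of gene length, averaged over the 8 mice. The highest level was that of Bst2 (89.2 CPM per kb), which encodes tetherin, a membrane protein that holds budding virus at the cell surface. Ifi35 (26.2), Ifit3 (23.1), Parp12 (18.6) and Irf9 (11.8 CPM per kb) followed. Of these neighbours, the ranges over mice overlapped between Ifi35 and Ifit3 (20.9 to 31.7 and 12.2 to 30.4 CPM per kb). The range of Ifit3 also overlapped that of Parp12 (15.0 to 21.6 CPM per kb), which met that of Irf9 (6.32 to 15.0 CPM per kb). That of Bst2 (69.7 to 129 CPM per kb) overlapped none. The lowest levels were those of Oas3 (0.927 CPM per kb), Rsad2 (1.16), Mx2 (1.35), Ifi44 (1.42) and Herc6 (1.58 CPM per kb). Oasl1 (1.78) and Mx1 (2.04 CPM per kb) lay next above these, while Isg15 stood at 10.8 CPM per kb.

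**Figure D1:**
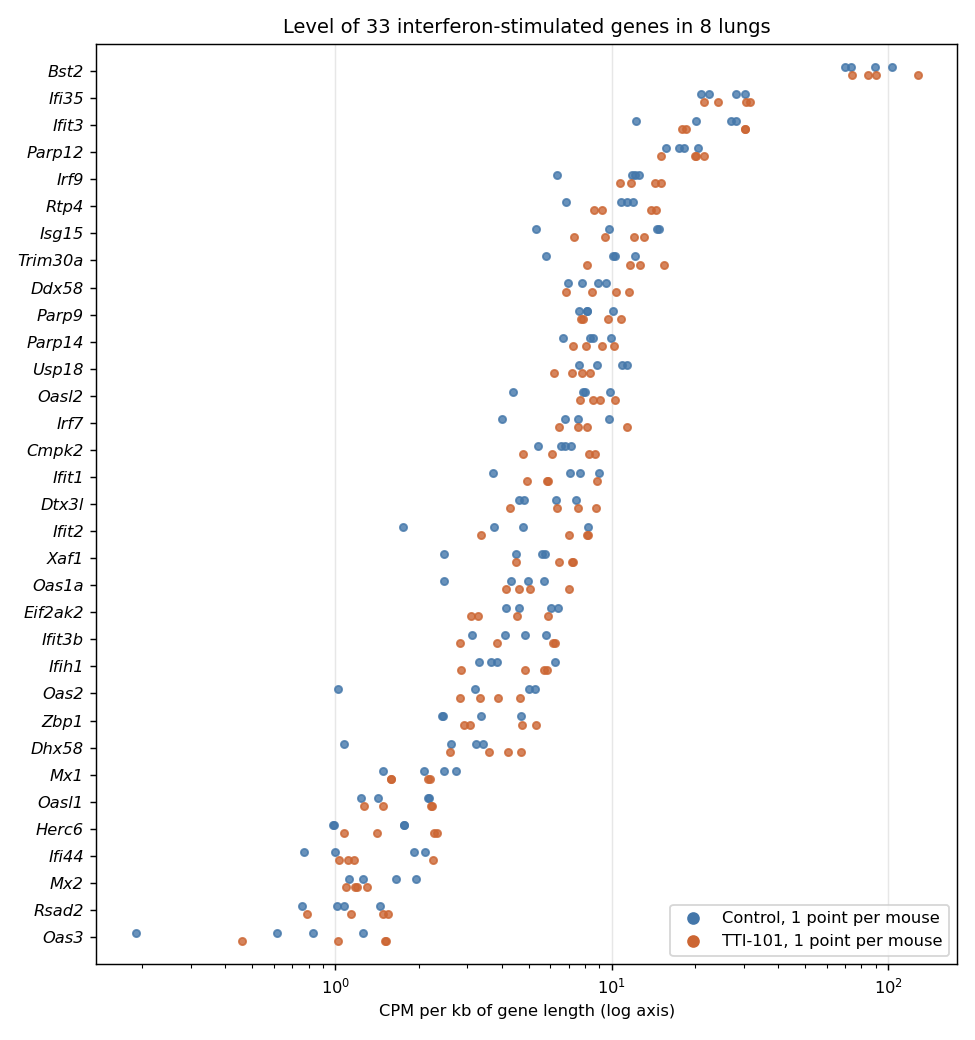
Level of each of the 33 genes as CPM per kb of gene length on a log axis, with 1 point per mouse (blue, 4 Control mice; orange, 4 TTI-101-treated mice) and genes ordered by mean level. Bst2 stood highest at a mean of 89.2 CPM per kb and Oas3 lowest at 0.927, and the points of the 2 groups overlapped for every gene.

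Between TTI-101-treated and Control lungs, none of the 33 genes differed after adjustment. The quasi-likelihood F-test of edgeR, adjusted by Benjamini-Hochberg over all genes, called 0 members at 0.05, as it did for 0 of all 17138 genes (0%), and the lowest adjusted p of a member was 0.657. DESeq2's Wald test and limma-voom also called 0 members. DESeq2 called 4 of the 31830 genes with at least 1 count, and limma-voom called 0 of the 17138 genes. At an unadjusted p under 0.05, edgeR gave 0 members higher in TTI-101, where 3.02% of all genes passed, and 1 member lower, where 3.58% of all genes passed (6.61% in either direction). DESeq2 and limma-voom gave 0 members in either direction at that threshold, where 5.31% of the 31830 and 6.41% of the 17138 genes passed. The single member was Usp18. In 0 members did every TTI-101 mouse lie above every Control mouse (1.53% of all genes), and in 0 did every TTI-101 mouse lie below (1.43% of all genes).

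The fitted differences were small. The log2 fold change, TTI-101 over Control, ran from -0.39 for Usp18 to 0.63 for Oas3, with 26 members above 0 and 7 below and a median of 0.17. Over all genes tested, 50.6% were above 0 and the median was 0.00. Without Control mouse 4, the members' median was 0.07, with 22 above 0 and 11 below, while 53.3% of all genes were above 0 with a median of 0.02. The median was also moved by over 1.5 times by leaving out TTI-101 mouse 1 (0.11), TTI-101 mouse 2 (0.27) or TTI-101 mouse 3 (0.07). For 28 of the 33 members, the 95% interval of the log2 fold change lay within -1 and 1, a change of less than 2-fold in either direction, as it did for 65.1% of all genes. The exceptions were Oas3, Dhx58, Ifit2, Xaf1 and Herc6, whose intervals reached 1.77, 1.29, 1.45, 1.05 and 1.04.

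**Figure D2:**
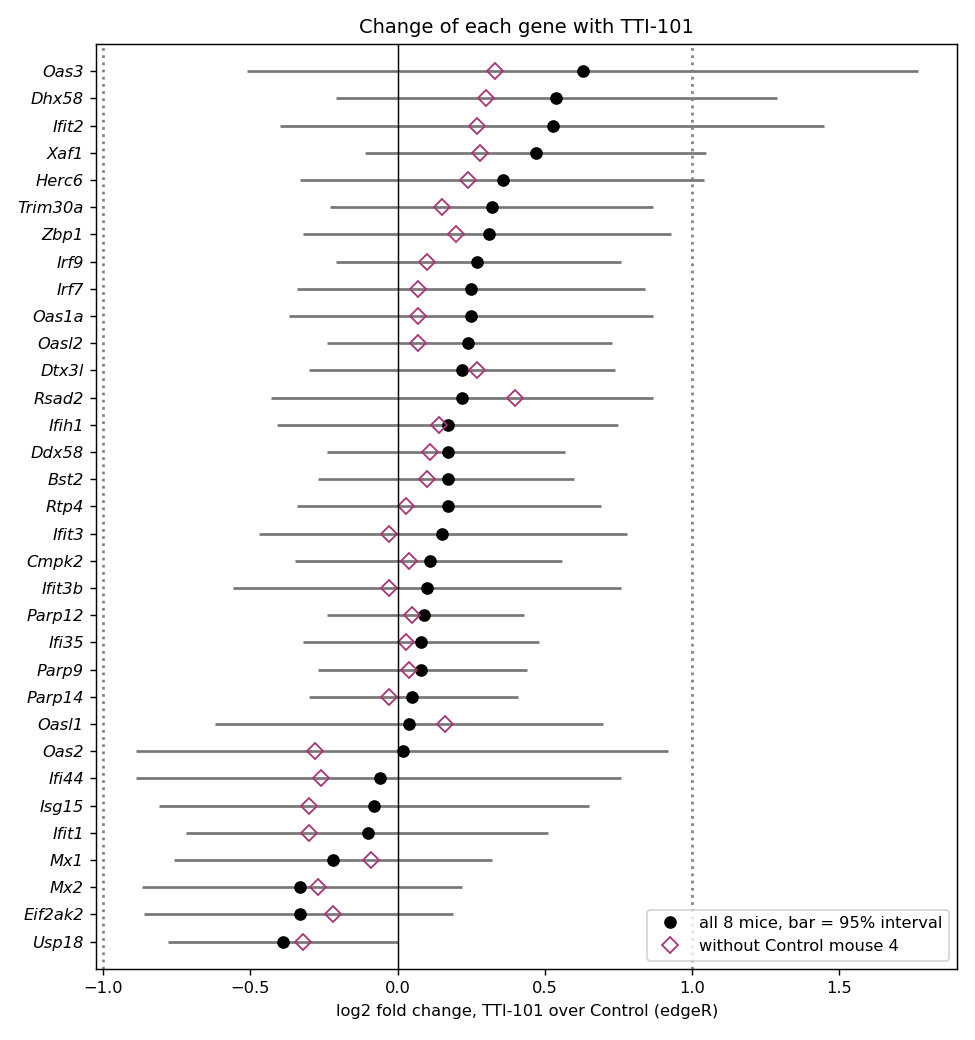
log2 fold change of each gene, TTI-101 over Control, from edgeR with all 8 mice (black points, bars showing the 95% interval) and without Control mouse 4 (open diamonds). The interval of Usp18 ends at -0.00, those of all other genes include 0, and the dotted lines at -1 and 1 mark 2-fold changes.

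The level of the members also varied between mice of the same group. For each mouse, the deviation of log2 CPM from the gene's mean over 8 mice was taken, and the median over the 33 members was 0.15, -0.01, 0.04 and -0.51 in Control mice 1 to 4 and 0.31, -0.25, 0.33 and 0.03 in TTI-101 mice 1 to 4. Control mouse 4 and TTI-101 mouse 2 were thus the low mice, and TTI-101 mice 1 and 3 the high ones. Control mouse 4 had the lowest value of all 8 mice in 19 of 33 members (57.6%), against 28.7% of all genes, and TTI-101 mouse 2 had it in 6 members (18.2%), against 11.2% of all genes. Against the mean of the other Control mice, Control mouse 4 was lower in 26 members and higher in 7, with a median difference in log2 CPM of -0.55. The 7 members were Usp18, Eif2ak2, Mx1, Mx2, Rsad2, Oasl1 and Dtx3l. TTI-101 mouse 2 was lower than the mean of the other treated mice in 29 members, with a median difference of -0.45. The SD of log2 CPM among the Control mice had a median of 0.41 over the members and 0.33 over all genes, and without Control mouse 4 these medians were 0.26 and 0.24.

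**Figure D3:**
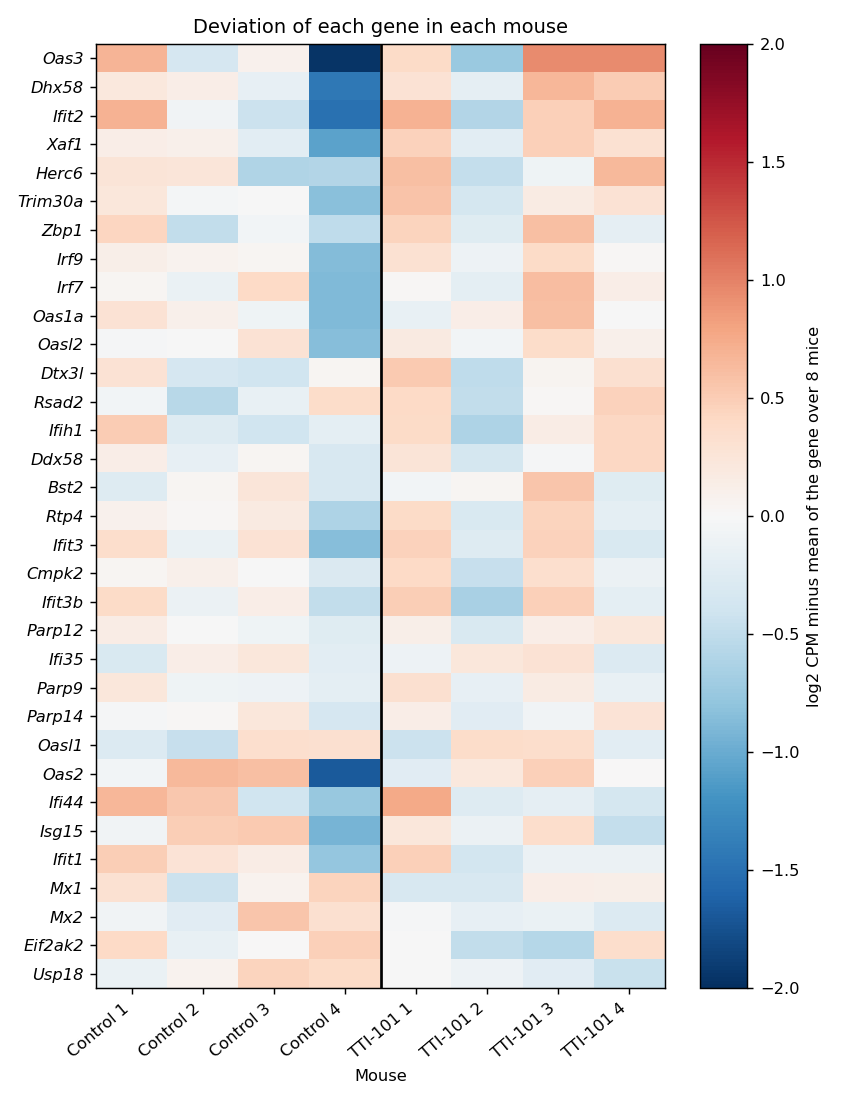
Deviation of log2 CPM from the mean of each gene over 8 mice (blue, lower; red, higher), with genes in rows ordered by log2 fold change and mice in columns, the line separating Control from TTI-101. The column of Control mouse 4 is blue in most rows, with Oas3 at -1.96 and Oas2 at -1.68, and it is above 0 for Usp18, Eif2ak2, Mx1, Mx2, Rsad2, Oasl1 and, at 0.044, Dtx3l.

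Markers of cell types moved between the mice as well. Summed CPM of 6 endothelial markers was 2700, 2630, 2300 and 983 in Control mice 1 to 4 and 3310, 2200, 3840 and 3910 in TTI-101 mice 1 to 4. The lowest endothelial sums were thus those of Control mouse 4 and TTI-101 mouse 2, the mice in which the interferon-stimulated genes were also lowest. Control mouse 3, at 2300 CPM, was close to TTI-101 mouse 2 and was not low for the members (median deviation 0.04). The 10 lung epithelial markers summed to 57500, 60700, 76700 and 100000 CPM in Control and to 46900, 76700, 46200 and 40500 CPM in TTI-101 mice, with Control mouse 4 highest. Most of that sum was Sftpc, Scgb1a1, Sftpb and Sftpa1, while Ager and Hopx, markers of alveolar type I cells in the same list, were lowest in Control mouse 4 (913 and 174 CPM) and had log2 fold changes of 0.41 and 0.39. T cell markers (8 genes) summed to between 22.1 and 96.3 CPM in Control and between 50.6 and 108 CPM in TTI-101 mice, and B cell markers (8 genes) to between 110 and 293 CPM in Control and between 265 and 541 CPM in TTI-101 mice. Control mouse 4 had the lowest sum of all 8 mice in both lymphocyte lists. The median log2 fold change was 1.12 for the B cell markers (0.99 without Control mouse 4). All 8 had an unadjusted p under 0.05 in edgeR, where 3.02% of all genes passed above 0, and 0 an adjusted p under 0.05. Monocyte markers (9 genes) summed to between 701 and 2010 CPM in Control and between 1580 and 2270 CPM in TTI-101. Most of that sum was Ace and Chil3. Of the 9 monocyte markers, 6 had a log2 fold change above 0 and 3 below. Their median was 0.47, or 0.21 without Control mouse 4. The 3 below 0 were Ly6c2, Ccr2 and Cx3cr1 (-0.11, -0.30 and -0.08), and the highest was Nr4a1 (1.06). Alveolar macrophage markers (9 genes) summed to between 258 and 528 CPM in Control and between 416 and 543 CPM in TTI-101. Of these, 7 had a log2 fold change above 0 and 2 below, with a median of 0.29 (0.15 without Control mouse 4). Neutrophil markers (8 genes) summed to between 35.2 and 279 CPM in Control and between 60.6 and 430 CPM in TTI-101, and red blood cell markers (6 genes) to between 58.5 and 264 and between 205 and 1590 CPM. The 5 red blood cell markers tested were all above 0. Their median log2 fold change was 2.50, the largest of the marker lists. Of these 5, 4 passed an unadjusted p of 0.05 in edgeR and 0 an adjusted p of 0.05. Medians were 0.74, 0.83 and 0.58 for T cell, neutrophil and endothelial markers, all above 0 where tested. Without Control mouse 4, these 4 medians were 3.04, 0.48, 0.53 and 0.40. The epithelial median was -0.43 (-0.20 without it), with 2 above 0 and 8 below. Plasmacytoid dendritic cells, known as strong producers of type I interferon, had 11 markers that summed to between 240 and 318 CPM in Control and between 303 and 361 CPM in TTI-101. Most of that sum was Tcf4 and Irf8. Of the 11 markers, 9 had a log2 fold change above 0 and 2 below, with a median of 0.33 (0.21 without Control mouse 4). Below 0 were Siglech, which defines these cells, at -0.11 and Klk1 at -0.10. Spib (1.46) and Tlr9 (0.80) had an unadjusted p under 0.05 in edgeR, where 3.02% of all genes passed above 0. Of the 11, 0 had an adjusted p under 0.05. Spib was at 25.3, 11.0, 12.5 and 4.54 CPM in Control and at 39.8, 20.7, 56.0 and 31.8 CPM in TTI-101 mice. B cells also express Tlr9, and the cells behind the values of Spib and Tlr9 cannot be told in whole lung. None of these markers was at 0 in all libraries. The sums of the endothelial, monocyte, alveolar macrophage, neutrophil and plasmacytoid dendritic cell lists were likewise lowest in Control mouse 4. Those of the epithelial and red blood cell lists were not. In whole lung, fewer cells of a type and less RNA per cell cannot be told apart, and the part of these cell types in the values of the interferon-stimulated genes was not tested.

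**Figure D4:**
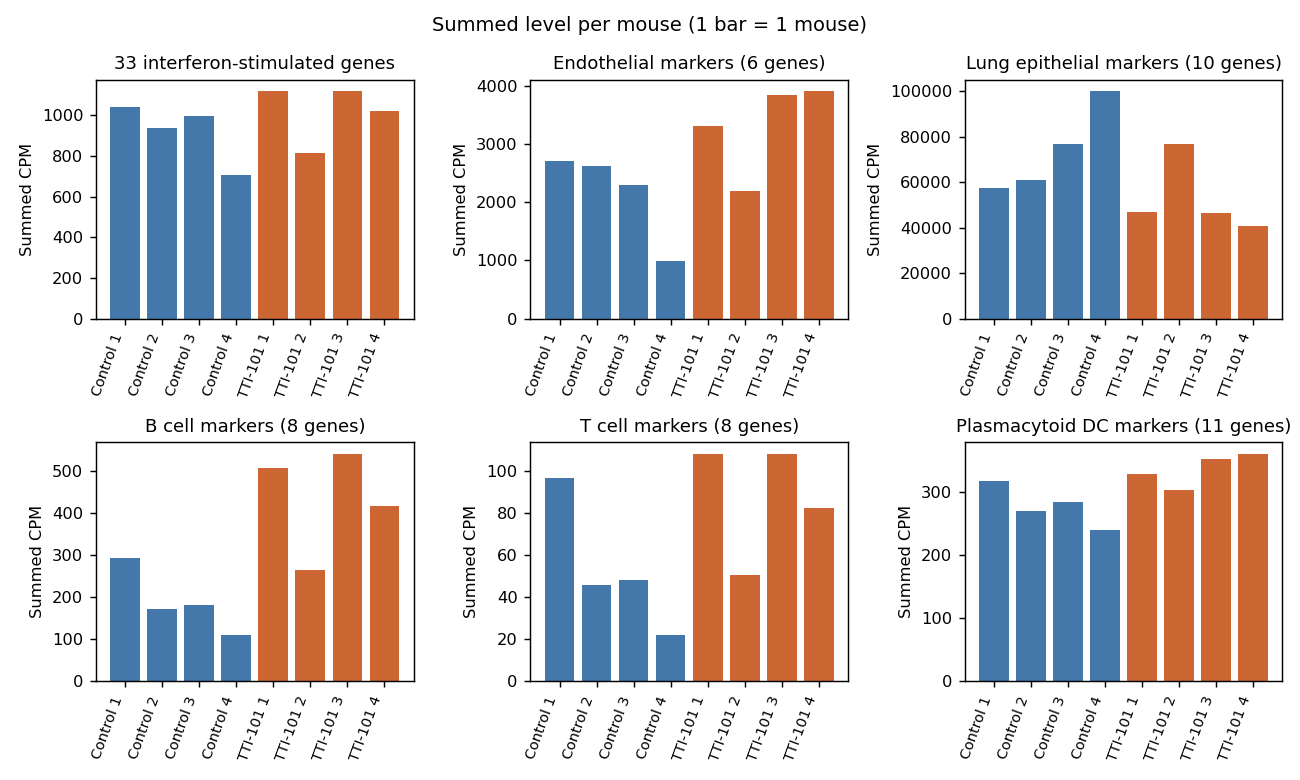
Summed CPM per mouse of the 33 interferon-stimulated genes and of marker lists for endothelium, lung epithelium, B cells, T cells and plasmacytoid dendritic cells (DC), with 1 bar per mouse (blue, Control; orange, TTI-101). The interferon-stimulated genes summed to 706 CPM in Control mouse 4 and to between 814 and 1120 CPM in the other mice, and the epithelial markers were highest, at 100000 CPM, in Control mouse 4.

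The interferon genes themselves were scarcely detected. Of 20 type I and type III interferon genes, 15 had 0 counts in all 8 libraries, among them Ifnb1, the gene of interferon beta. The other 5 were Ifna7, with 6 counts over the Control and 1 over the TTI-101 libraries, Ifna11 (0 and 1), Ifnk (9 and 1), Ifnz (4 and 5) and Ifnl3 (0 and 2). In total they gave 19 counts in Control and 10 in TTI-101, and the highest count of any of them in 1 library was 8. Control mouse 4 alone gave 14 of the Control counts, leaving 5 in the other Control mice. A count of 0 allows up to 3 counts, or 0.112 CPM in the deepest and 0.187 CPM in the shallowest library, for counting error only. A difference in interferon transcripts was therefore not detectable at this depth.

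The receptor and its kinases and STATs were expressed in every mouse. Of 8 genes tested, 7 had a log2 fold change above 0 and 1 below, with a median of 0.18 (0.11 without Control mouse 4), and 0 passed an unadjusted p of 0.05 in edgeR. Ifnar1 and Ifnar2, the receptor chains, were at 76.8 ± 8.89 and 59.3 ± 6.78 CPM (SD, n = 4) in Control and at 86.8 ± 16.1 and 71.6 ± 9.58 CPM (SD, n = 4) in TTI-101 lungs. Their log2 fold changes were 0.18 and 0.27. For Ifnlr1 and Il10rb, the receptor chains of type III interferon, the values were 0.02 and -0.14. Jak1 gave 0.34 and Tyk2 0.15. Stat2 gave 0.17 (95% interval -0.28 to 0.63). It was at 76.5, 76.4, 81.5 and 39.8 CPM in Control mice 1 to 4 and at 80.7, 72.9, 76.3 and 79.4 CPM in TTI-101 mice 1 to 4, so that Control mouse 4 was again the lowest. Without that mouse, the log2 fold change of Stat2 was -0.00.

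Of the members, 4 encode sensors of nucleic acid. Ddx58, which encodes the RNA sensor RIG-I, was at 67.2, 54.8, 62.9 and 49.0 CPM in Control mice 1 to 4 and at 73.2, 48.0, 60.0 and 81.4 CPM in TTI-101 mice 1 to 4. Its highest and lowest values were both in treated mice, and the log2 fold change was 0.17 (SE 0.18), and 0.11 without Control mouse 4. Dhx58 encodes LGP2, a regulator of RIG-I and MDA5. It was at 11.2, 10.6, 8.60 and 3.52 CPM in Control and at 11.8, 8.53, 15.3 and 13.8 CPM in TTI-101 mice, with 3 of 4 treated mice above all Control mice. Dhx58 had a log2 fold change of 0.54 (SE 0.34, unadjusted p = 0.138 from edgeR) and 0.30 without Control mouse 4. Ifih1, which encodes MDA5, and Zbp1, a sensor of Z-form nucleic acid, gave 0.17 and 0.31, and 0.14 and 0.20 without Control mouse 4. All 4 values were thus above 0, and all 4 intervals included 0.

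Irf9 encodes the DNA-binding partner of STAT proteins at the response element. Irf9 was at 67.5, 65.4, 63.7 and 34.0 CPM in Control mice 1 to 4 and at 76.9, 57.6, 81.0 and 63.2 CPM in TTI-101 mice 1 to 4. Control mice 1 to 3 lay within 4 CPM of each other and Control mouse 4 was far below them. Irf9 had a log2 fold change of 0.27 (SE 0.22), and of 0.10 without that mouse. Irf9 overlaps Rnf31 on the same strand, with up to 1543 counts per library in that gene. Irf7, the factor that amplifies interferon production, gave 0.25, and 0.07 without Control mouse 4.

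The IFIT proteins bind viral RNA and block its translation, and their 4 genes lie side by side on chromosome 19, between 34550694 (the start of Ifit2) and 34650009 (the end of Ifit1). Ifit3 was at 49.0, 35.2, 47.0 and 21.3 CPM in Control mice 1 to 4 and at 53.1, 32.3, 53.1 and 31.3 CPM in TTI-101 mice 1 to 4. The groups covered much the same range, and the log2 fold change was 0.15 (SE 0.28), turning to -0.03 without Control mouse 4. Ifit2 was at 32.1, 18.8, 14.7 and 6.91 CPM in Control and at 31.9, 13.2, 27.6 and 32.1 CPM in TTI-101 mice. One Control mouse reached the highest treated mice, while Control mouse 4 and TTI-101 mouse 2 were lowest, a spread of 4.65-fold over the 8 mice. Ifit2 had a log2 fold change of 0.53 (SE 0.42), and of 0.27 without Control mouse 4. Ifit3b gave 0.10 and Ifit1 -0.10, and without that mouse -0.03 and -0.30. Neighbours in this cluster therefore had fold changes on both sides of 0, and without Control mouse 4 only Ifit2 of the 4 was above 0. Ifit3 and Ifit3b share 51.2% and 45.0% of their 50-base windows with other genes, chiefly with each other, so the split of reads between them is uncertain.

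OAS enzymes make the second messenger that activates RNase L. The 5 members listed here, which include the OAS-like genes Oasl1 and Oasl2, all gave values above 0. Without Control mouse 4, 4 of the 5 did. Oasl2, an OAS-like gene, was at 50.1, 50.9, 62.6 and 28.1 CPM in Control mice 1 to 4 and at 57.8, 49.1, 65.5 and 54.7 CPM in TTI-101 mice 1 to 4. Apart from Control mouse 4, all mice were at 49.1 CPM or above. With that mouse the log2 fold change was 0.24 (SE 0.22), and without it 0.07. Oas3 was at 8.88, 4.36, 5.88 and 1.34 CPM in Control and at 7.24, 3.24, 10.7 and 10.8 CPM in TTI-101 mice. Its values differed 8.01-fold between the highest and the lowest mouse, the widest spread of the 33 members, and 3.32-fold without Control mouse 4. For Oas3 the log2 fold change was 0.63 (SE 0.51), and 0.33 without Control mouse 4. Oas2, 3244 bases from Oas3 on chromosome 5, gave 0.02, which turned to -0.28 without Control mouse 4, and it too was lowest in Control mouse 4 (4.54 CPM against 12.6 to 23.4 CPM in the other mice). Oas1a gave 0.25 and Oasl1 0.04, and without Control mouse 4 they gave 0.07 and 0.16. Oas1a shares 57.6% of its 50-base windows with other genes, chiefly Oas1g and Oas1b, and its value is uncertain for that reason.

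ISG15 is a ubiquitin-like protein that is attached to other proteins during the interferon response. Isg15 was at 7.41, 11.0, 11.2 and 4.03 CPM in Control mice 1 to 4 and at 9.12, 7.15, 9.90 and 5.53 CPM in TTI-101 mice 1 to 4. All treated mice lay inside the range of the Control mice, and the log2 fold change was -0.08 (SE 0.33). Its sign depended on the fit, as limma-voom and leaving out Control mouse 2, Control mouse 3 or TTI-101 mouse 4 each put it above 0, while leaving out Control mouse 4 moved it to -0.30. Usp18 encodes the protease that removes ISG15 and also restrains signaling at the IFNAR2 chain. Usp18 was at 21.3, 24.6, 31.6 and 30.4 CPM in Control and at 23.3, 21.7, 20.0 and 17.2 CPM in TTI-101 mice. Every treated mouse was below the Control mean, and 2 of 4 were below all Control mice, but Control mouse 1 lay within the treated range. The means were 27.0 ± 4.89 and 20.5 ± 2.63 CPM (SD, n = 4). The log2 fold change of Usp18 was -0.39 (SE 0.18, unadjusted p = 0.0486 and adjusted p = 0.657 from edgeR), while p was 0.0857 when all 70 ways of assigning the mice were enumerated (exact permutation test, two-sided). Without Control mouse 4 it was -0.32 (unadjusted p = 0.11 from edgeR). Usp18 was not among the members low in Control mouse 4. Herc6, which encodes the ligase that attaches ISG15 in mice, gave 0.36, and 0.24 without Control mouse 4. Uba7 and Ube2l6, the activating and conjugating enzymes of the same system, gave 0.38 and 0.14.

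Mx GTPases and further direct effectors gave 3 values above 0 and 3 below. Bst2 was at 66.0, 81.2, 93.4 and 62.9 CPM in Control mice 1 to 4 and at 76.2, 81.4, 116 and 67.0 CPM in TTI-101 mice 1 to 4. One treated mouse was above all Control mice, and the log2 fold change was 0.17 (SE 0.20), and 0.10 without Control mouse 4. Eif2ak2 encodes PKR, the kinase that halts translation on double-stranded RNA. It was at 30.9, 21.1, 23.6 and 32.6 CPM in Control and at 23.3, 16.8, 15.8 and 30.1 CPM in TTI-101 mice. Unlike most members it was highest in Control mouse 4, and its log2 fold change was -0.33 (SE 0.24, unadjusted p = 0.19 from edgeR), and -0.22 without that mouse. Mx1 and Mx2, neighbours on chromosome 16 that share 3.91% and 4.38% of their windows, gave -0.22 and -0.33, and -0.09 and -0.27 without Control mouse 4. Rsad2, which encodes viperin, and Cmpk2 beside it on chromosome 12 gave 0.22 and 0.11, and 0.40 and 0.04 without it. Usp18, Eif2ak2, Mx1 and Mx2 had log2 fold changes below 0 in every fit made.

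Parp9, Parp12 and Parp14, which encode ADP-ribosyl transferases, were grouped with Dtx3l, which encodes a ubiquitin ligase. Parp12 was at 82.1, 73.1, 69.7 and 62.6 CPM in Control mice 1 to 4 and at 80.1, 60.0, 80.7 and 86.3 CPM in TTI-101 mice 1 to 4. The groups overlapped widely, and the log2 fold change was 0.09 (SE 0.15, 95% interval -0.24 to 0.43), and 0.05 without Control mouse 4. Dtx3l was at 42.6, 27.5, 26.5 and 35.9 CPM in Control and at 50.3, 24.5, 36.2 and 43.2 CPM in TTI-101 mice, with a log2 fold change of 0.22 (SE 0.24). Its partner Parp9, whose product works in a complex with DTX3L, gave 0.08, and Parp14 gave 0.05, and without Control mouse 4 they gave 0.04 and -0.03. Parp9 and Dtx3l overlap by 682 bases on opposite strands. Parp9 and Parp12 had spreads of 1.42-fold and 1.44-fold between the highest and the lowest mouse, the narrowest of the 33 members.

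Among the remaining members, Ifi35 was at 36.2, 48.8, 52.5 and 38.7 CPM in Control mice 1 to 4 and at 41.8, 52.6, 54.7 and 37.2 CPM in TTI-101 mice 1 to 4. Its groups overlapped, and the log2 fold change was 0.08 (SE 0.18), and 0.03 without Control mouse 4. Xaf1, a gene whose product promotes apoptosis, was at 26.9, 26.3, 21.2 and 11.6 CPM in Control and at 33.8, 21.1, 34.0 and 30.3 CPM in TTI-101 mice. Treated mice 1, 3 and 4 lay above all Control mice and treated mouse 2 lay below 3 of them. For Xaf1 the log2 fold change was 0.47 (SE 0.26, unadjusted p = 0.102 from edgeR), and 0.28 without Control mouse 4. Trim30a gave 0.32, Rtp4 0.17 and Ifi44 -0.06, and without that mouse they gave 0.15, 0.03 and -0.26. Rtp4 shares 11.6% and Trim30a 5.98% of their windows with other genes.

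**Figure D5:**
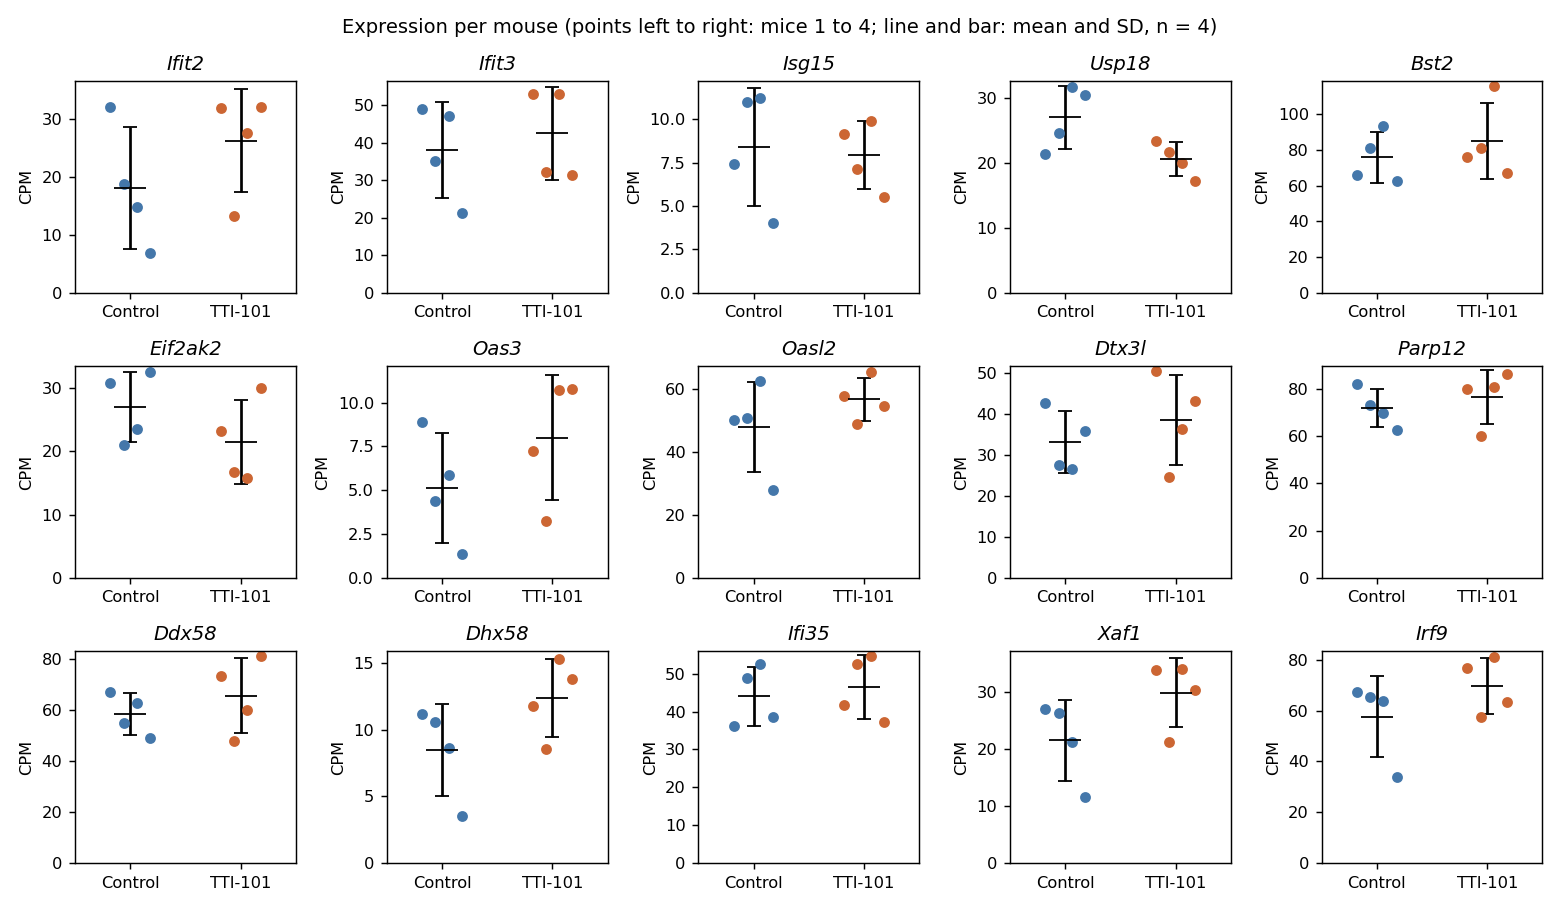
CPM per mouse of the 15 genes described with a value for every mouse, with 1 point per mouse (blue, Control; orange, TTI-101; mice 1 to 4 from left to right), the mean as a line and the SD as a bar (n = 4). The groups overlap in every panel, with 3 of 4 treated mice above all Control mice for Dhx58 and Xaf1 and 2 of 4 below all Control mice for Usp18.

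The members were also divided by the response element in their promoter window, without a test. The median log2 fold change was 0.17 over the 12 members with the motif and 0.23 over the 12 without, and members with values below 0 stood in both sets (Ifit1, Isg15 and Eif2ak2 with it, Ifi44 without).

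Other genes of the pathway were read from lists of their own. Of 14 tested genes of sensing and interferon induction, 7 had a log2 fold change above 0 and 7 below. Tlr9, an endosomal DNA sensor that B cells and plasmacytoid dendritic cells express, was the only one with an unadjusted p under 0.05 in edgeR (log2 fold change 0.80, unadjusted p = 0.0294, adjusted p = 0.657). It was at 4.62, 2.93, 2.55 and 3.58 CPM in Control and at 3.47, 5.46, 8.17 and 6.93 CPM in TTI-101 mice, beside the values of the B cell markers given above. Negative regulators gave 7 values above 0 and 3 below in 10 genes tested, with 0 at an unadjusted p under 0.05 in edgeR. Of 36 further interferon-stimulated genes tested, 32 were above 0 and 4 below, with a median log2 fold change of 0.22 (0.14 without Control mouse 4). Pml, the organizer of nuclear bodies, and Shisa5 were the 2 with an unadjusted p under 0.05 in edgeR, at log2 fold changes of 0.39 and 0.54 and an adjusted p of 0.657 each. Over all 70 tested genes of these pathway lists, 55 were above 0 and 15 below, 3 passed an unadjusted p of 0.05 and 0 an adjusted p of 0.05. The 3 were all above 0. Of all genes tested, 3.02% passed that threshold above 0 and 6.61% in either direction. Without Control mouse 4, 51 of the pathway genes were above 0. The share of all genes above 0 was 50.6%, and 53.3% without that mouse. Pathway genes above 0 at an unadjusted p under 0.05 became 9 without Control mouse 1 and 10 without TTI-101 mouse 2. In these 2 fits 13.7% and 14.2% of all genes passed in either direction. The pathway genes above 0 became 0 without Control mouse 2 and 1 without any other single mouse. Below 0, 1 gene passed without Control mouse 2 and 1 without Control mouse 3. Genes that respond chiefly to interferon gamma, the guanylate-binding proteins, immunity-related GTPases and related chemokines, had a median log2 fold change of 0.43 over 21 tested genes (0.25 without Control mouse 4), with 19 above 0. Of these, 0 passed an adjusted p of 0.05 and 1 an unadjusted p of 0.05 in edgeR, Cxcl9 at -2.00, which was at 10.5 CPM in Control mouse 1 and between 0.243 and 1.79 CPM in the other 7 mice. The difference between these genes and the 33 members was not tested.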

How the data were processed

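RNA of whole CC-LR lungs (4 Control, 4 TTI-101) was sequenced by a provider (Novogene) from poly(A)-selected, stranded libraries. The authors deposited raw counts per Ensembl gene, with coordinates of GRCm38. The submitters' processing notes name STAR, DESeq2 and mm10 without versions or roles, and the counting tool and its strand setting are not given in the sources used here.

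Differential expression was tested on these counts with edgeR 4.0.16 in R 4.3.3 (filterByExpr with a minimum count of 10, TMM, robust quasi-likelihood F-test, Benjamini-Hochberg adjustment over all 17138 genes tested, threshold 0.05). CPM are after TMM, and log2 CPM used a prior count of 2. Standard errors were taken from the F statistic. The exact permutation test covered 70 assignments, with a smallest p of 0.0286. Alternatives were DESeq2 1.42.0, limma-voom (limma 3.58.1), other scalings and filters, a replicate block and each library left out. The fits were tested on simulated counts with larger changes than those of the members and no library set apart. That check therefore does not cover changes of the members' size. Groups came from the sample labels. The labels give each library a tissue, a group and a number, and each library was taken as 1 mouse. On that reading p-values measure the spread between mice. Precision at these depths is limited by the number of mice.

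The members, gene lists and marker lists were chosen with earlier results of these data known. All members are named. Those with a value for every mouse are, within each of 8 role lists, the member with the highest CPM per kb and the member with the lowest p. Promoters were printed for up to 5 of these with the most motif matches, at most 1 per role list. Shared sequence was counted as 50-base windows of GENCODE M21 transcripts also found in another gene. Of the pathway lists, Mnda was not matched, and Trex1 was listed at 0 counts in all libraries. Not every gene of the pathway lists is reported here.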

Additional observations from a re-analysis of the deposited data

Results flagged for a closer look

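Among 68 groups of 4 mice examined, covering each member and the median deviation of the members, 2 held a mouse whose gap to its nearest neighbour took more of the range than Dixon's test allows at 95%, where chance flags about 1 in 20. Irf9 in Control mouse 4 was at 34.0 CPM against 63.7 to 67.5 CPM in the other Control mice, a gap of 0.887 of the range. Ifi44 in TTI-101 mouse 1 was at 13.8 CPM against 6.32 to 7.17 CPM in the other treated mice, a gap of 0.886 of the range.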

How the results depend on the processing

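Under all alternatives, 0 members had an adjusted p under 0.05. The median log2 fold change of the members lay between 0.07 and 0.27 when single libraries were left out and between 0.15 and 0.20 in the other fits. The 1 member lower at an unadjusted p under 0.05, Usp18, became 0 with DESeq2's Wald test, limma-voom, DESeq2 size factors, library totals, no filter and at least 10 counts in every library, where the unadjusted p of Usp18 lay between 0.0504 and 0.0728. When single libraries were left out, 0 to 1 members were lower and 0 to 1 higher at that threshold. The member higher was Ifit2 without Control mouse 1 and Xaf1 without TTI-101 mouse 2, where 13.7% and 14.2% of all genes passed in either direction. Members with all treated mice below all Control mice numbered 0 to 1 (Usp18, without Control mouse 1, against 5.33% of all genes), and above them 0 to 2 (Dhx58 and Xaf1, without TTI-101 mouse 2, against 7.63% of all genes). The causes were not tested. In all fits together, 21 of 33 members kept the sign of their log2 fold change, 17 above and 4 below 0.

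Same-numbered mice of the 2 groups correlated at 0.393, 0.0822, 0.158 and 0.0707 in their deviations from the group means, and not every mouse correlated best with its own number, so the numbers were not taken to pair the mice. With the replicate number as a block, the median was 0.17, with 26 members above 0 and 7 below, 0 at an adjusted p under 0.05 and 1 lower at an unadjusted p under 0.05 in edgeR, which was Eif2ak2 and not Usp18.

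With 4 mice per group, the intervals of Oas3, Dhx58, Ifit2, Xaf1 and Herc6 do not exclude a 2-fold increase.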
